A study of Mus musculus with 9 samples.

Results

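The genes described here encode secreted immune signals: colony-stimulating factors, interleukins, chemokines, members of the tumour necrosis factor (TNF) superfamily and 3 other secreted proteins. A list of 44 gene symbols was matched to the 23332 gene rows of an RNA sequencing study of FVB MOE cells, a monoclonal line of secretory mouse oviductal epithelial cells. Of these, 43 had a row of their own, and *Tnfsf12* stood only in a row joined with *Tnfsf13* and *BC096441*. All cells were kept for 48 h in medium stripped of hormones and then treated for 24 h with 0.1% DMSO as the solvent control, with 1 nM 17β-estradiol (E2), or with 100 nM 4-hydroxytamoxifen (4OHT), a selective estrogen receptor modulator, dissolved in DMSO. Each condition had 3 samples, numbered 1 to 3 in the labels. The study asked which genes E2 and 4OHT regulate in these cells, and the 2 agents were each given at a single dose and time. Because 1 clone was studied, the values describe that line and not the oviduct. Nothing in the labels says that the 3 samples came from separate cultures, so the p-values measure only the spread between these samples, which may be technical.

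Cytokines and chemokines are small secreted or membrane-bound proteins that cells use to signal to each other, and most act at short range through receptors on neighbouring or migrating cells. Colony-stimulating factors and *Il34* control the growth and survival of myeloid cells. Chemokines bind G protein-coupled receptors and direct leukocytes along a gradient, while interleukins and TNF superfamily ligands start inflammatory, survival or death programmes. Epithelia that line the reproductive tract are a known source of such signals, and estradiol, through its nuclear receptors, is known to alter their production in several tissues.

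Expression was measured as FPKM (fragments mapped to a gene, scaled by its length and by all mapped fragments), a level per length that can be set side by side between genes. The summed FPKM per sample lay between 522517 and 588640, and 11037 to 11175 gene rows reached 1 FPKM. Read totals are not part of the FPKM values, but the smallest steps between low values gave the relative depth, which ranged from 0.812 in 4OHT replicate 2 to 1.18 in DMSO replicate 2 with DMSO replicate 1 set to 1. Each 4OHT sample was shallower than each DMSO sample. Of 5 epithelial markers (keratins 8, 18 and 19, *Epcam*, *Cdh1*), only the 3 keratins had a median of at least 1 FPKM. *Cdh1* did not reach it, and *Epcam* stayed under 0.2 FPKM in all 9 samples. The sum of the 5, carried mostly by the keratins, was 874 to 1181 FPKM in DMSO, 1244 to 1665 in E2 and 977 to 1250 in 4OHT. Of 6 leukocyte markers, 4 (*Ptprc*, *Emr1*, *Itgam* and *Cd3e*) were under 0.2 FPKM in every sample, and the sum of the 6, carried mostly by *Cd68* and *Csf1r*, was 7.65 to 9.92 FPKM in DMSO, 7.16 to 9.70 in E2 and 6.26 to 8.69 in 4OHT. Of 5 stromal markers, 4 were under 0.2 FPKM throughout, as were 2 of 3 endothelial markers. The stromal sum, carried mostly by *Col1a1*, was 1.96 to 6.89 FPKM in DMSO, 2.23 to 4.70 in E2 and 2.07 to 5.34 in 4OHT. The endothelial sum, carried mostly by *Kdr*, was 0.624 to 0.837 FPKM in DMSO, 1.17 to 1.40 in E2 and 0.722 to 0.852 in 4OHT. The sum of the 3 ciliated-cell markers with a row was 16.9 to 19.2 FPKM in DMSO, 12.8 to 16.9 in E2 and 17.4 to 19.4 in 4OHT. Its members differed in direction between E2 and DMSO, with log2 differences of -0.40 for *Foxj1* and 0.19 for *Rsph1*. The limma adjusted p values were 0.304 and 0.306 without the replicate number as a block, and 0.0176 and 0.0533 with it. The part of these sums in the ligand values was not tested. In bulk RNA, fewer cells of a type and less RNA per cell cannot be told apart.

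A ligand was called expressed when its median FPKM over the 9 samples was at least 1. By that measure 23 of the 43 were expressed, 18 were weakly listed with a median under 1 and some value above 0, and 2, *Il1b* and *Cxcl14*, were listed at 0 in all samples. The levels spanned a wide range. Only 4 members had a median of at least 100 FPKM: *Mif* (macrophage migration inhibitory factor), *Spp1* (osteopontin, a secreted matrix phosphoprotein and ligand of integrins and *Cd44*), *Clcf1* (a ligand of the *Il6* family) and *Csf1* (the macrophage growth factor). *Mif* and *Spp1* together made up 77.5% to 83.2% of the members' summed FPKM, which was 2073 to 2605 per sample. *Il18*, *Il1rn* and *Cxcl1* followed between 10 and 100, another 16 members lay between 1 and 10, 9 between 0.1 and 1, and 11 under 0.1.

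**Figure D1:**
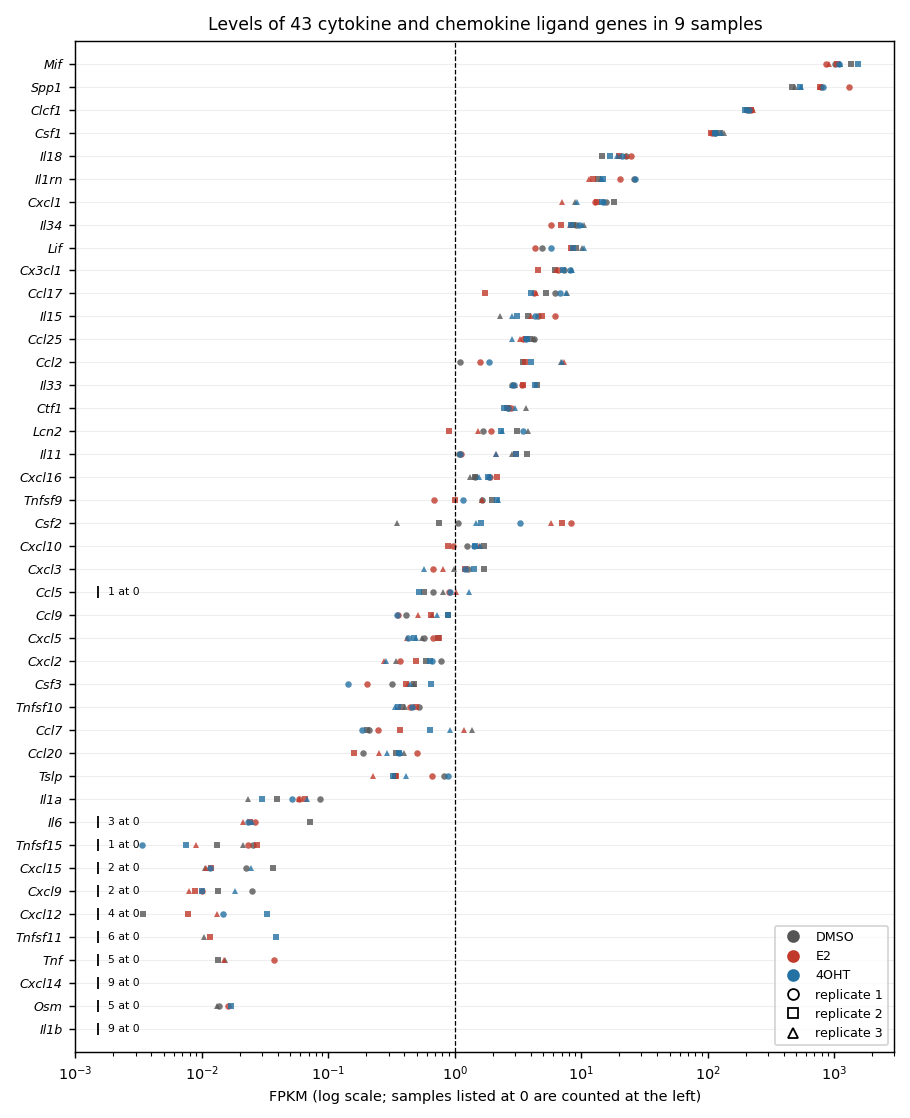
Each row is 1 of the 43 ligand genes with its own row, ordered by median, and each symbol is 1 sample on a log FPKM axis (colour gives the condition, shape the replicate number, the dashed line 1 FPKM). Samples listed at 0 cannot be drawn on a log axis and are counted at the left; 23 genes have a median of at least 1 FPKM, and the 2 rows with 9 samples at 0 are *Il1b* and *Cxcl14*.

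Among the weakly listed ligands, *Tnf*, the founding member of its superfamily, reached at most 0.0373 FPKM (E2 replicate 1) and was listed at 0 in 5 samples. *Il6* reached at most 0.0714 FPKM (DMSO replicate 2) with 3 samples at 0, and *Il1a*, an alarmin of the Il1 family, lay between 0.0233 and 0.0859. *Osm* had values that correspond to about 1 read in 4 samples and 0 in the other 5, so no difference between conditions was detectable at this depth. *Cxcl9* and *Cxcl15* did not exceed 0.0362 FPKM, *Cxcl12* did not exceed 0.0328, *Tnfsf11* did not exceed 0.0386 and *Tnfsf15* did not exceed 0.0275. A second group lay closer to the limit: *Ccl5*, *Ccl7*, *Ccl9*, *Ccl20*, *Cxcl2*, *Cxcl5*, *Csf3*, *Tslp* and *Tnfsf10* had medians from 0.343 to 0.811 FPKM. They were not tested, since a row needed 1 FPKM in at least 3 samples, which 11339 gene rows and the 23 expressed members met.

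Exact zeros were set apart, because 299 gene rows in these files carry a value of exactly 0 in some sample although their median nonzero FPKM is at least 1. None of the ligands was such a row, and 11 of the 43 had any 0 at all. The nearest case, named after its values were seen, was *Ccl5*, a chemokine for T cells and monocytes. Its FPKM was 0.677, 0.568 and 0.811 in DMSO replicates 1 to 3, 0.894, 0 and 1.02 in E2, and 0.913, 0.526 and 1.29 in 4OHT. At these levels *Ccl5* would have about 13 to 34 reads in the other samples, against 0 in E2 replicate 2. *Il6st*, which encodes gp130, the shared receptor of the *Il6* family, was listed at 0 in E2 replicate 3 and at 31.0 to 96.7 FPKM in the other 8 samples. These single values are read as listed at 0 and not as loss of expression.

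Part of the list differed between E2 and DMSO, and how much of it depended on the fit. With limma on log2(FPKM + 1), 1 of 23 tested ligands was higher in E2 than in DMSO at an adjusted p under 0.05, where 0.494% of all tested rows were higher, and 0 were lower, where 0.0176% of all rows were. An unadjusted p under 0.05 was found for 7 of the 23 ligands and for 1237 of all 11339 tested rows. Samples with the same replicate number deviated together, and limma with that number as a block called 4 ligands higher and 7 lower, against 10.4% and 4.63% of all tested rows. Those higher were *Csf2*, *Spp1*, *Il15* and *Cxcl16*, and those lower were *Ccl17*, *Il34*, *Cxcl1*, *Mif*, *Cx3cl1*, *Il1rn* and *Csf1*. The median log2 fold change was -0.18 over the 23 ligands and -0.003 over all tested rows. In all 3 replicate pairs, 7 ligands were higher in E2 than in DMSO and 12 were lower, where 28.1% and 24.3% of all tested rows were. The DMSO and E2 samples did not overlap for 3 ligands that were higher (*Csf2*, *Clcf1*, *Cxcl16*) and 5 that were lower (*Csf1*, *Il34*, *Ccl17*, *Ccl25*, *Tnfsf9*), where 9.14% and 6.05% of all tested rows did not overlap in these directions. Fewer ligands were called when the block was kept and 1 replicate number was left out. There were 5 without replicate 1 (*Csf2*, *Spp1*, *Ccl17*, *Il34* and *Lcn2*, the last of which was not among the 11), where 4.4% of all tested rows were called. There were 4 without replicate 2 (*Csf2*, *Spp1*, *Ccl17* and *Il1rn*), where 2.78% of all rows were, and 2 without replicate 3 (*Csf2* and *Spp1*), where 1.81% were.

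4OHT gave no call among the ligands. Against DMSO, 0 of 23 passed in limma with or without the block, and 0% of all tested rows passed in either direction, with 3 ligands (no block) and 5 (block) and 313 and 1480 rows at an unadjusted p under 0.05. In all 3 pairs 7 ligands were higher and 2 were lower than in DMSO, where 30.2% and 15.6% of all tested rows were. Apart from *Csf2*, the log2 differences of the tested ligands ran from -0.23 for *Ccl25* to 0.21 for *Ccl2*. When E2 was set against 4OHT, 0 ligands were called without the block in either direction, where 0.159% of all tested rows were higher and 0% lower. An unadjusted p under 0.05 was found for 7 ligands and for 1307 of all 11339 tested rows. With the block 3 were higher in E2 (*Csf2*, *Spp1*, *Il15*) and 5 lower (*Ccl17*, *Cx3cl1*, *Mif*, *Il34*, *Il1rn*), where 8.63% and 7.6% of all tested rows were. Of these 8, *Csf2* and *Spp1* also passed in the blocked fit without replicate 1, 2 or 3, where 1.92%, 1.47% and 1.36% of all tested rows passed, and the other 6 did not (limma adjusted p from 0.0507 to 0.120). In all 3 pairs 6 ligands were higher in E2 than in 4OHT and 11 lower, where 24.3% and 30.9% of all tested rows were. The 3 comparisons share samples, since each condition enters 2 of them, so their values are given side by side and not as independent evidence.

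**Figure D2:**
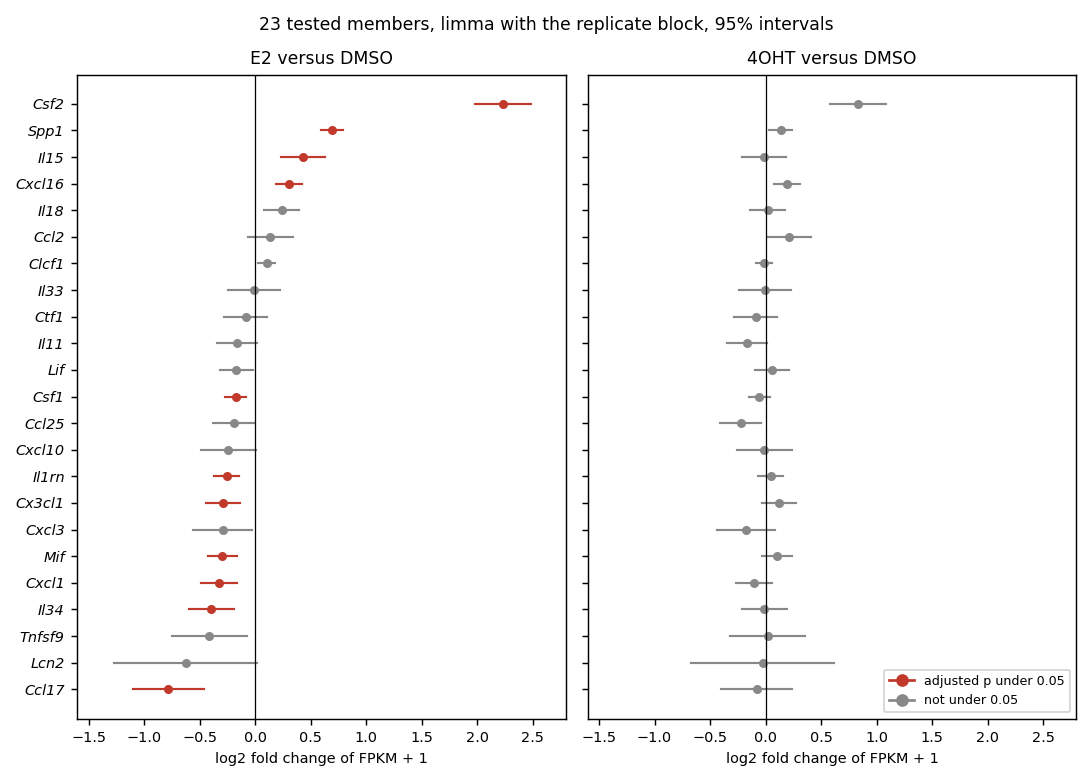
Points are log2 fold changes of FPKM + 1 for the 23 tested ligands and bars their 95% intervals, from limma with the replicate block, for E2 (left) and 4OHT (right) against DMSO; red marks an adjusted p under 0.05. Red points number 11 on the left, led by *Csf2* at 2.23, and 0 on the right, where *Csf2* stands at 0.83.

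Promoters of the 11 called ligands were read to set their sequence beside these values. RefSeq promoters of GRCm38.p6, the assembly that mm10 names, were found for 8 of the 11 and not matched for *Cxcl16*, *Il15* and *Il34*. The 250 bases before each transcript start were searched on both strands for the AP-1 site TGANTCA, for the NF-kappaB consensus by name and for the full palindromic estrogen response element GGTCANNNTGACC. These occurred in 6.75%, 7.25% and 0.0639% of 32851 promoters of the same length. The estrogen response element had no match in the 11 RefSeq promoters of these 8 genes, which says only that these letters are not in these windows. AP-1 matched in *Il1rn*, 141 bases before the start, and NF-kappaB matched in *Csf1*, 154 bases before the start, and in *Cxcl1*, where matches on both strands overlap at 71 and 70 bases before the start. The windows printed are those of *Csf2* and *Spp1*, the ligands called for E2 against DMSO with the block whichever replicate number was left out, which hold no match, and of *Cxcl1*, with the overlapping NF-kappaB matches in capitals, each 5′ to 3′ on the strand of the gene. They lie at chr11:54249900-54250149 (minus strand), chr5:104434861-104435110 (plus strand, the upstream of 2 starts in RefSeq) and chr5:90890995-90891244 (plus strand). The RefSeq start of *Csf2*, at 54249899, lies before the GENCODE one, at 54249667. The bases between these starts were not searched.
Csf2: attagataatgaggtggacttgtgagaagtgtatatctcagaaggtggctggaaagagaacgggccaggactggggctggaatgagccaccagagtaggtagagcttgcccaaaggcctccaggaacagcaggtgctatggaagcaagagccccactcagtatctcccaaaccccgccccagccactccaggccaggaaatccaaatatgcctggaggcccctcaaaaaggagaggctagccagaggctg
Spp1: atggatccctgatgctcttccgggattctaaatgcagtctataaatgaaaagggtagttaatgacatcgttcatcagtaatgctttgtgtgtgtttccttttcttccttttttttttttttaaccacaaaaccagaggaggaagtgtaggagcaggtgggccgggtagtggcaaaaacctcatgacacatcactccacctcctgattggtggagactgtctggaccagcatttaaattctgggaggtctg
Cxcl1: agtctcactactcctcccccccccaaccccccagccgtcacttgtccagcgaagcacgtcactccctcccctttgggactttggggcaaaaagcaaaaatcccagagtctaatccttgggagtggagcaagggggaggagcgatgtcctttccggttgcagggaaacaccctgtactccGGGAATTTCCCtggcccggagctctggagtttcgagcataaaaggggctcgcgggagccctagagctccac
A match is a description of the letters and not a measured site, since binding was not measured here.

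*Csf2* encodes granulocyte-macrophage colony-stimulating factor (GM-CSF), which drives the growth and activation of granulocytes, macrophages and dendritic cells. Its FPKM was 1.06, 0.746 and 0.349 in DMSO replicates 1, 2 and 3, 8.26, 7.07 and 5.75 in E2, and 3.25, 1.61 and 1.47 in 4OHT. In these values, set beside the promoter printed above, all E2 samples stood above all others, and all 4OHT samples stood above all DMSO samples. In approximate reads the DMSO samples held 36, 28 and 14, and the E2 samples 235, 222 and 210. Mean FPKM was 0.718 ± 0.356 (SD, n = 3) in DMSO, 7.03 ± 1.25 in E2 and 2.11 ± 0.991 in 4OHT. The ratio of E2 to DMSO was 9.79 for the means and 7.80, 9.48 and 16.5 in the 3 pairs. On the log2(FPKM + 1) scale, which understates the change of a gene this low in DMSO, the difference was 2.23 (SE 0.24, limma adjusted p = 0.0132). With the replicate block the SE was 0.10 and the limma adjusted p = 0.000385. Without the block the call did not hold when DMSO replicate 2, DMSO replicate 3, E2 replicate 1 or E2 replicate 2 was left out (limma adjusted p = 0.0594, 0.0577, 0.0570 and 0.0731), with log2 fold changes from 2.07 to 2.38 over the 9 such fits.

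Under 4OHT the ratio of *Csf2* to DMSO was 2.94 for the means and 3.07, 2.16 and 4.21 in the pairs. The log2 difference of 0.83 had a 95% interval of 0.58 to 1.08 with the block, but over all tested rows it did not pass (limma adjusted p = 1.00 without the block and 0.239 with it). It passed in 1 alternative, the block with the exact zeros of other rows taken as missing (limma adjusted p = 0.0205). The study, which tested with Cuffdiff, listed *Csf2* among the genes most raised by E2 and among those raised by 4OHT. It also measured the response of *Csf2* to both agents by qPCR. E2 exceeded 4OHT by 1.40 on the log2 scale (limma adjusted p = 0.0873 without and 0.00228 with the block). Condition took 92.0% of the sum of squares of *Csf2* over the 9 samples, the highest share of the 23 ligands. The gene lies at chr11:54247271-54249667 on the minus strand of mm10, and its exons overlap those of the antisense gene *Gm12223* in the GENCODE annotation. The study prepared directional libraries, but whether counting used strand is not given in the sources used here.

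The other 2 expressed genes of this group, *Csf1* and *Il34*, encode ligands of the receptor *Csf1r* and were both lower with E2 in the blocked fit. *Il34* (chr8:110741829-110805924, minus strand) read 9.13, 8.64 and 10.5 FPKM in DMSO, 5.78, 6.96 and 8.17 in E2, and 9.58, 8.26 and 10.2 in 4OHT. Every E2 sample was below every sample of the other conditions. The log2 difference between E2 and DMSO was -0.39 (SE 0.12 without and 0.08 with the block, limma adjusted p = 0.316 and 0.0278), and with replicates 1, 2 or 3 left out of the blocked fit the limma adjusted p was 0.0473, 0.0975 and 0.156. Against 4OHT it was -0.38 (limma adjusted p = 0.369 and 0.0320). Exons of *Il34* overlap the antisense genes *Gm15894* and *Gm15895*. *Csf1* (chr3:107741048-107760469, minus strand) read 115, 125 and 134 FPKM in DMSO, 109, 107 and 113 in E2, and 115, 115 and 128 in 4OHT. The E2 samples again lay below all others, by a small margin. That difference from DMSO was -0.18 on the log2 scale (SE 0.07 and 0.04, limma adjusted p = 0.419 without and 0.0337 with the block), and it did not pass in the blocked fit without replicate 1, 2 or 3 (limma adjusted p = 0.0628, 0.165 and 0.240). *Csf3*, the granulocyte factor, stayed between 0.142 and 0.646 FPKM.

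**Figure D3:**
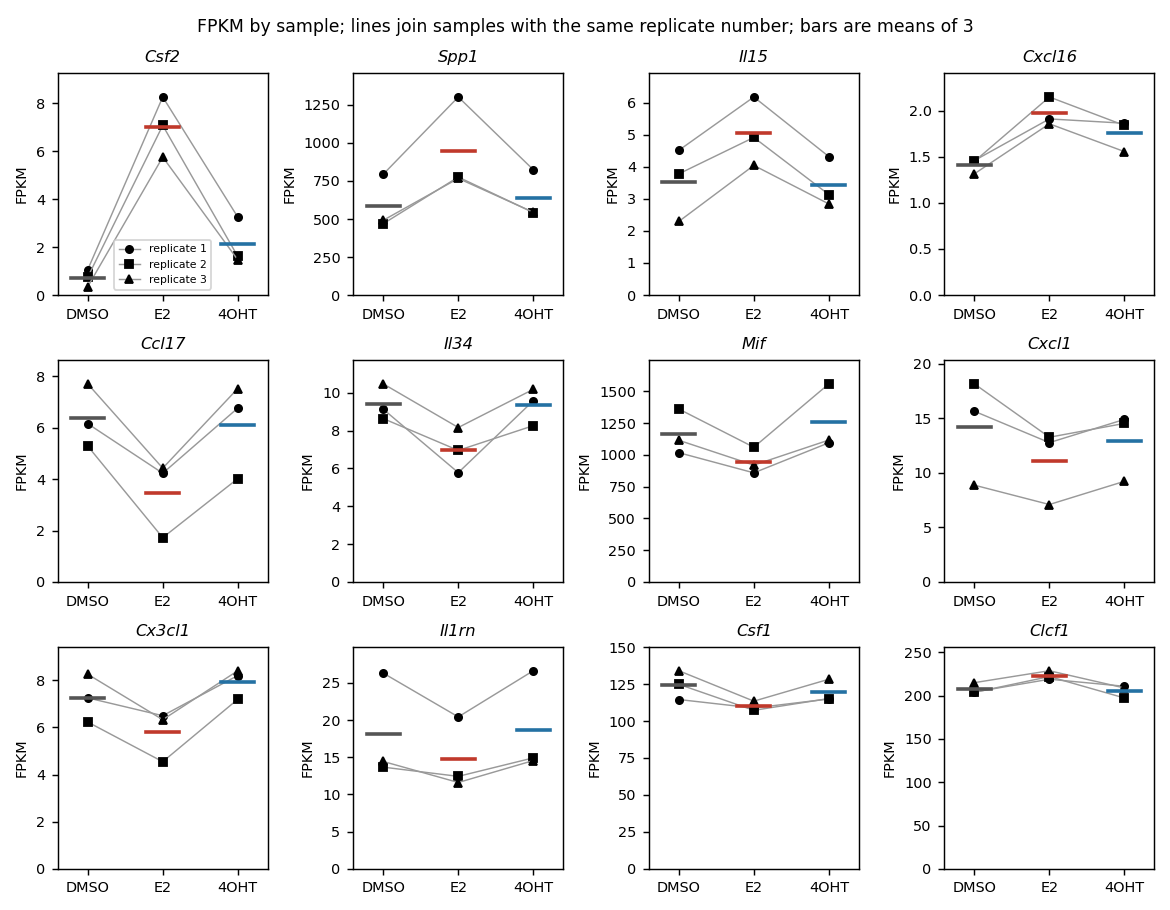
FPKM of the 11 ligands called in either fit and of *Clcf1*, with an axis that starts at 0 in each panel; points are samples, grey lines join samples with the same replicate number, and coloured bars are means of 3. *Csf2* rises from a mean of 0.718 in DMSO to 7.03 in E2, with 4OHT at 2.11, while for *Spp1* the lines run in parallel with replicate 1 above replicates 2 and 3 in each condition.

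*Spp1* (chr5:104435118-104441050, plus strand) had the second highest median over the 9 samples. It read 795, 469 and 492 FPKM in DMSO, 1302, 776 and 767 in E2, and 824, 542 and 544 in 4OHT. DMSO and E2 samples overlapped, since DMSO replicate 1 exceeded E2 replicates 2 and 3, but within each replicate number E2 was higher, by a ratio of 1.64, 1.65 and 1.56. The log2 difference was 0.69, with an SE of 0.29 without the block (limma adjusted p = 0.440) and of 0.04 with it (limma adjusted p = 0.000845). Leaving out replicates 1, 2 or 3 from the blocked fit gave limma adjusted p values of 0.0112, 0.0211 and 0.0280. E2 exceeded 4OHT by 0.56 (limma adjusted p = 0.477 without and 0.00231 with the block), and 4OHT differed from DMSO by 0.14 (limma adjusted p = 1.00 and 0.376). An exon of *Gm42793* overlaps *Spp1* on the same strand.

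*Il15* and *Cxcl16* were the other ligands higher with E2. *Il15*, a growth factor of natural killer cells and memory T cells, read 4.52, 3.78 and 2.30 FPKM in DMSO, 6.18, 4.92 and 4.05 in E2, and 4.32, 3.14 and 2.84 in 4OHT. The groups overlapped, while E2 was the highest condition within each replicate number. Its log2 difference from DMSO was 0.43 (SE 0.22 and 0.08, limma adjusted p = 0.536 without and 0.0205 with the block), and with replicates 1, 2 or 3 left out of the blocked fit the limma adjusted p was 0.103, 0.0724 and 0.0876. From 4OHT it differed by 0.45 (limma adjusted p = 0.464 and 0.0215). *Cxcl16* is a transmembrane chemokine and the ligand of *Cxcr6*. It read 1.46, 1.45 and 1.31 FPKM in DMSO, 1.91, 2.15 and 1.86 in E2, and 1.86, 1.84 and 1.56 in 4OHT. All E2 and all 4OHT samples lay above all DMSO samples, and E2 and 4OHT overlapped. The log2 difference was 0.30 for E2 (SE 0.07 and 0.05, limma adjusted p = 0.199 and 0.0127) and 0.19 for 4OHT (limma adjusted p = 1.00 and 0.376). Without replicates 1, 2 or 3 the E2 difference of *Cxcl16* had limma adjusted p values of 0.0643, 0.110 and 0.131 in the blocked fit. Exons of *Cxcl16* overlap the antisense gene *Zmynd15*.

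Among the chemokines that were lower, *Ccl17* had the largest difference. *Ccl17*, the ligand of *Ccr4* that attracts T helper and regulatory T cells, read 6.16, 5.29 and 7.71 FPKM in DMSO, 4.23, 1.72 and 4.43 in E2, and 6.76, 4.02 and 7.53 in 4OHT. The E2 samples were below all DMSO samples, and E2 replicate 2 was the lowest of all 9, at about 35 reads. The log2 difference was -0.78 (SE 0.30 and 0.13, limma adjusted p = 0.408 without and 0.0149 with the block), and in the blocked fit without replicate 1, 2 or 3 the limma adjusted p was 0.0445, 0.0444 and 0.126. Against 4OHT the difference was -0.70 (limma adjusted p = 0.433 and 0.0232). Without E2 replicate 2, and with no block, the differences were -0.46 from DMSO and -0.38 from 4OHT.

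*Cx3cl1* (fractalkine, a membrane-anchored chemokine) read 7.26, 6.23 and 8.26 FPKM in DMSO, 6.50, 4.55 and 6.33 in E2, and 8.20, 7.20 and 8.41 in 4OHT. E2 overlapped DMSO and lay below all 4OHT samples. Its log2 difference was -0.29 from DMSO (limma adjusted p = 0.517 and 0.0331) and -0.41 from 4OHT (limma adjusted p = 0.373 and 0.0145). The former did not pass in the blocked fit without replicate 1, 2 or 3 (limma adjusted p = 0.0636, 0.132 and 0.207). *Cxcl1*, a neutrophil chemokine and ligand of *Cxcr2*, read 15.7, 18.2 and 8.87 FPKM in DMSO, 12.8, 13.3 and 7.10 in E2, and 14.9, 14.5 and 9.22 in 4OHT. Replicate 3 was the lowest in every condition, and the groups overlapped. Its log2 difference between E2 and DMSO was -0.33 (SE 0.32 and 0.07, limma adjusted p = 0.731 and 0.0254), which did not pass in the blocked fit without replicate 1, 2 or 3 (limma adjusted p = 0.108, 0.0789 and 0.103). Without the block, leaving out 1 sample moved it from -0.61 (without DMSO replicate 3) to -0.06 (without E2 replicate 3). *Cxcl1*, *Cxcl2*, *Cxcl3* and *Cxcl5* are neighbouring paralogs on chromosome 5, and how the authors' counting split shared reads is not known, so single members are uncertain.

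Of the remaining chemokines, none passed in any comparison with or without the block. *Ccl2*, a monocyte chemokine, *Ccl25*, a ligand of *Ccr9*, *Cxcl3* and the interferon-induced *Cxcl10* had log2 differences of 0.14, -0.19, -0.29 and -0.24 between E2 and DMSO, with limma adjusted p values of 0.297, 0.131, 0.121 and 0.157 in the blocked fit. *Ccl25* read 4.21, 3.97 and 4.23 FPKM in DMSO, 3.49, 3.69 and 3.29 in E2, and 3.65, 3.74 and 2.84 in 4OHT. Its E2 and 4OHT samples all lay below its DMSO samples, and the log2 difference between 4OHT and DMSO was -0.23 (limma adjusted p = 1.00 without and 0.376 with the block). Exons of *Ccl25* overlap the antisense gene *Elavl1*, and those of *Cxcl10* overlap the antisense gene *Art3*. *Ccl7*, which lies beside *Ccl2* on chromosome 11 and resembles it, ranged from 0.185 to 1.36 FPKM and was not tested.

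*Mif*, the ligand with the highest median over the 9 samples, read 1017, 1360.4 and 1114 FPKM in DMSO, 858, 1059.7 and 919 in E2, and 1095, 1558 and 1116 in 4OHT. E2 was the lowest condition within each replicate number, and its samples overlapped those of DMSO through replicate 2. The log2 difference from DMSO was -0.29 (SE 0.16 and 0.05, limma adjusted p = 0.573 without and 0.020 with the block), and without replicate 1, 2 or 3 the blocked limma adjusted p was 0.104, 0.0536 and 0.118. From 4OHT it was -0.40 (limma adjusted p = 0.428 and 0.0110). The mouse genome holds many processed copies of *Mif* that can share its reads, so its level is uncertain. *Lcn2* (lipocalin 2, a secreted protein that binds iron-carrying siderophores) ranged from 0.903 to 3.79 FPKM. Its log2 difference between E2 and DMSO was -0.63 with a 95% interval of -1.27 to 0.02 in the blocked fit (limma adjusted p = 0.161).

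In the Il1 family 3 of 5 genes were expressed. *Il1rn*, the secreted antagonist that blocks the Il1 receptor, read 26.3, 13.7 and 14.4 FPKM in DMSO, 20.4, 12.4 and 11.6 in E2, and 26.7, 14.9 and 14.6 in 4OHT. Replicate 1 was highest in each condition and the groups overlapped. The log2 difference between E2 and DMSO was -0.26 (SE 0.33 and 0.05, limma adjusted p = 0.797 and 0.0182), and the blocked limma adjusted p was 0.109, 0.0418 and 0.169 without replicate 1, 2 or 3. Without the block it turned to 0.03 when DMSO replicate 1 was left out. E2 differed from 4OHT by -0.31 (limma adjusted p = 0.697 and 0.0133). *Il18*, which induces interferon gamma in lymphocytes, was between 14.7 and 24.7 FPKM and higher in E2 than in DMSO in all 3 pairs, with a log2 difference of 0.24 that did not pass in the blocked fit (limma adjusted p = 0.0590). The alarmin *Il33* was between 2.84 and 4.48 FPKM with a difference of -0.01.

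In the *Il6* family, whose receptors share gp130, *Clcf1*, *Lif*, *Ctf1* and *Il11* were expressed and none passed in either fit. *Clcf1* read 204, 204 and 215 FPKM in DMSO, 219, 222 and 229 in E2, and 211, 197 and 209 in 4OHT. The E2 samples lay above all others, by a log2 difference from DMSO of 0.10 (SE 0.05 and 0.03, limma adjusted p = 0.476 and 0.0741). An exon of *AC109138.7* overlaps *Clcf1* on the same strand. *Lif*, which maintains stem cells and takes part in embryo implantation, ranged from 4.35 to 10.5 FPKM, and its difference between E2 and DMSO was -0.17. In the TNF superfamily *Tnfsf9*, the ligand of the T cell co-stimulator 4-1BB, was the 1 tested gene with its own row. It ranged from 0.681 to 2.19 FPKM, with a log2 difference of -0.41 between E2 and DMSO (limma adjusted p = 0.518 and 0.0977). Exons of *Tnfsf9* overlap the antisense gene *Gm11110*. The joined row that holds *Tnfsf12* (TWEAK) stood at 18.7 to 23.1 FPKM with a difference of -0.14 (limma adjusted p = 0.441 and 0.0996), and which of the joined genes gave that level cannot be told apart.

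Samples of the same replicate number shared much of the ligands' variation. Over the 23 ligands the median share of the sum of squares of log2(FPKM + 1) was 45.3% for condition, 50.1% for replicate number and 6.93% for the remainder, and over all tested rows it was 26.5%, 50.8% and 14.8%. In 12 of the 23 the share of the replicate number was the larger, and the same held for 66.6% of all tested rows. One replicate number lay apart from the other two in every condition in 7 ligands, where 34.6% of all tested rows did so. *Ccl2* was the clearest of these, with 1.11, 1.58 and 1.87 FPKM in the replicate 1 samples of DMSO, E2 and 4OHT, 3.46, 3.57 and 4.01 in replicate 2, and 6.88, 7.37 and 7.02 in replicate 3. The 3 replicate numbers did not overlap, and 97.2% of its sum of squares went with the number. *Il11* was lowest in replicate 1 and highest in replicate 2 (means 1.10 and 3.27 FPKM), *Lif* was lower in replicate 1, *Il33* was higher in replicate 2, *Cxcl1* was lower in replicate 3, and *Il1rn* and *Spp1* were higher in replicate 1. What the replicate numbers stand for is not given in the labels.

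**Figure D4:**
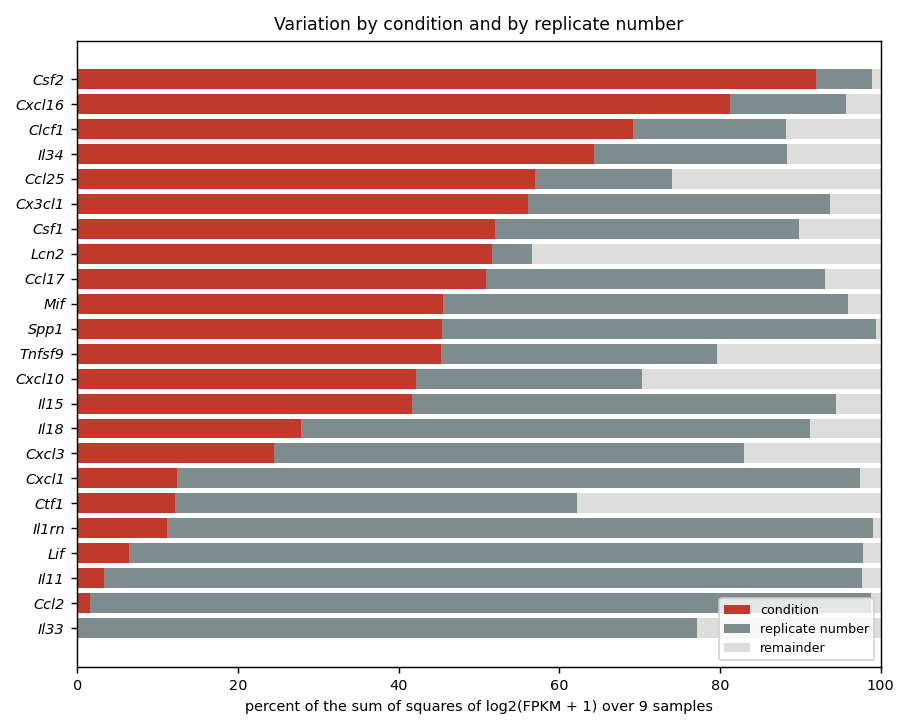
Stacked bars give, for each of the 23 tested ligands, the percent of the sum of squares of log2(FPKM + 1) over the 9 samples that goes with condition, with replicate number and with neither. *Csf2* is at the top with 92.0% for condition, and *Ccl2* has 97.2% for replicate number.

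Receptors of these ligands were listed separately, and 18 of 45 reached the level for testing. For E2 against DMSO, 0 passed in limma without the block (1 at an unadjusted p under 0.05, as were 1237 of all 11339 tested rows), and 2 were higher and 0 lower with it, where 10.4% and 4.63% of all tested rows were. *Cxcr7*, a scavenging receptor of *Cxcl12* now named *Ackr3*, read 11.6, 3.32 and 3.70 FPKM in DMSO, 14.6, 7.33 and 6.64 in E2, and 7.93, 2.82 and 2.85 in 4OHT. E2 was the highest condition within each replicate number, by a log2 difference from DMSO of 0.65 (limma adjusted p = 0.678 without and 0.0152 with the block). *Il6ra*, the *Il6*-binding receptor chain, read 2.61, 1.70 and 1.56 FPKM in DMSO, 3.72, 2.94 and 2.51 in E2, and 2.58, 2.05 and 1.84 in 4OHT, with a difference of 0.46 (limma adjusted p = 0.371 and 0.00444). The same 2 were higher in E2 than in 4OHT with the block, where 8.63% of all tested rows were. With replicate 1, 2 or 3 left out of the blocked fit, 2, 0 and 1 receptors were called for E2 against DMSO, where 4.4%, 2.78% and 1.81% of all tested rows were. For E2 against 4OHT it was 1, 0 and 1, where 1.92%, 1.47% and 1.36% of all tested rows were called. The one without replicate 3 was *Il6st* in both, and that fit leaves out its exact 0 in E2 replicate 3. For 4OHT against DMSO 0 of 18 passed in either fit (0 at an unadjusted p under 0.05 without the block and 4 with it, as were 313 and 1480 of all 11339 tested rows). The receptor chains of GM-CSF, *Csf2ra*, *Csf2rb* and *Csf2rb2*, did not exceed 0.0827 FPKM in any sample, while *Csf1r*, which binds both *Csf1* and *Il34*, was at 3.23 to 5.94. *Cd44*, a receptor of *Spp1* and a partner in *Mif* signalling, was at 61.3 to 91.2 FPKM, and *Tnfrsf12a*, the receptor of *Tnfsf12*, was at 256 to 340. *Cxcr1*, *Cxcr4* and *Ccr1* were listed at 0 in all samples.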

How the data were processed

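RNA from 9 samples of FVB MOE cells was sequenced by the study from directional, single-end libraries. The authors aligned trimmed reads to mm10 with TopHat2 2.0.8b and computed FPKM per gene with Cufflinks, and these deposited FPKM are the values used here. The submitters' processing notes also name Cuffdiff 2.1.1. Whether counting used strand, or libraries were scaled further, is not given in the sources used here.

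The members and gene lists were chosen with earlier results of these data known. The 11339 gene rows that reached 1 FPKM in 3 or more samples entered limma 3.58.1 (R 4.3.3) with a trend on log2(FPKM + 1), all 9 samples in 1 fit. The p-values, two-sided, were adjusted per contrast by Benjamini-Hochberg, with a threshold of 0.05. The replicate number was taken to pair the samples, since deviations from condition means correlated in all 9 same-numbered pairs (0.52 to 0.83, mean 0.69, 11094 tested rows with no exact 0). Over all tested rows the mean was 0.16, and 5 of 9 exceeded 0.1. Where the fit with this number as a block changes a call, both are given. The code was tested on simulated data with changes larger than that of any tested ligand but *Csf2*. That run does not show how the fits behave for smaller changes.

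Every sample's value was given for ligands called in either fit, the 3 of highest median and any with an exact 0 and a median nonzero FPKM of at least 1. Some genes of the receptor and marker lists are not reported here. Receptors were named where called in either fit, and others after their values were seen. Approximate reads came from the smallest steps between low FPKM values and GENCODE transcript lengths (GRCm38). Alternatives changed the pseudocount, filter, scaling, block, exact zeros and samples in the fit, and left out each sample. The blocked fits without a replicate number were added after the data were seen.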

Additional observations from a re-analysis of the deposited data

How the results depend on the processing

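With the replicate block the ligands called went from 1 to 11 for E2 versus DMSO and from 0 to 8 for E2 versus 4OHT, and all genes called from 58 to 1702 and from 18 to 1840, and the receptors from 0 to 2 in both. With the block and exact zeros as missing, 12 ligands and 2128 genes were called for E2 versus DMSO, 1 ligand (*Csf2*) and 22 genes for 4OHT versus DMSO, 13 ligands and 2476 genes for E2 versus 4OHT, and 4 receptors in both E2 comparisons. With the block and 1 replicate number left out, 2 to 5 ligands and 203 to 491 genes were called for E2 versus DMSO, and 2 ligands and 152 to 215 genes for E2 versus 4OHT. Leaving out single samples without the block called 0 to 1 ligands and 8 to 50 genes for E2 versus DMSO, 0 to 2 genes for 4OHT versus DMSO and 0 to 23 genes for E2 versus 4OHT. For E2 versus DMSO 32 genes were called with no filter, 36 with upper-quartile scaling and 8 with only the 6 samples compared. For 4OHT versus DMSO 3 genes were called with only the 6 samples. For E2 versus 4OHT 10 genes were called with a pseudocount of 0.1, 9 with no filter, 37 with exact zeros as missing and 8 with only the 6 samples. The causes were not tested. The ligands followed singly were mostly named because they passed with the block for E2 versus DMSO, so those passes were fixed in advance. In some settings, such as the block, their log2 fold changes could not move. Of 513 alternative values of single ligands, 453 kept direction and side of the threshold, 52 passed where they had not, 4 no longer passed and 4 turned in sign. Those were *Il1rn* for E2 versus DMSO (0.0303 without DMSO replicate 1, range -0.50 to 0.0303), *Spp1* for 4OHT versus DMSO (-0.0640 without 4OHT replicate 1 and -0.0017 without DMSO replicate 2, range -0.0640 to 0.38) and *Cxcl1* for E2 versus 4OHT (0.0418 without E2 replicate 3, range -0.43 to 0.0418), none of which had passed without the block. With no block, E2 versus DMSO moved by over 1.5 times for *Spp1* (to 0.44 without E2 replicate 1), *Il15* (to 0.22 without DMSO replicate 3), *Mif* (to -0.18 without DMSO replicate 2) and *Cx3cl1* (to -0.15 without E2 replicate 2). The same held for *Ccl17* (to -0.46 without E2 replicate 2), *Cxcl1* (to -0.06 without E2 replicate 3) and *Il1rn*, which turned in sign. Depth limits the members under 0.1 FPKM, which rest on few reads per sample.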
